A study of Rattus norvegicus with 6 samples.

Results

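The 9 interferon-stimulated genes Isg15, Ifit2, Ifit3, Mx1, Mx2, Irf1, Irf7, Irf9 and Rsad2 were picked by symbol from a table of 22085 genes, and each matched 1 row. RNA had been sequenced from rat amniotic fluid cells, taken at embryonic day 18.5 and grown to passage 4 in medium with fetal bovine serum. There were 3 libraries of control pregnancies and 3 of a preeclampsia model, a pregnancy disorder with high maternal blood pressure. The sources used here state neither how the model was induced nor the strain, nor how many animals or fetuses each library pooled, so p-values measure the spread between these libraries, which may be partly technical. The labels call the cells mesenchymal stem cells. Values of 3 libraries are listed below in the order of replicates 1, 2 and 3.

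Interferons are secreted proteins by which cells signal infection. Type I interferon binds the receptor pair Ifnar1 and Ifnar2, whose kinases Jak1 and Tyk2 phosphorylate STAT proteins, Stat2 among them. These join Irf9 and bind the interferon-stimulated response element of target genes. Type II interferon acts at the gamma-activated site, of which Irf1 is a well known target. The products include blocks to viral entry, translation and replication, and Irf7, itself induced, then amplifies interferon production.

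The promoters are shown first, because they can hold the elements described above. RefSeq promoter windows of the GRCr8 build, from 250 bases before to 50 after the annotated start, were matched by symbol for 6 of the 9 genes, namely Ifit3, Mx1, Irf1, Irf7, Irf9 and Rsad2. The core of the interferon-stimulated response element was searched as GAAANNGAAA and its reverse complement. It was found in 3 of the 6, against 3.92% of 33469 promoters. The gamma-activated site was searched as TTCNNNGAA, which reads the same on both strands, and was found in 2 of the 6, against 8.87% of promoters. Mx1 held neither in this window. Each stretch below ends at the last base before the start and holds 1 match, so none overlapped another. Capitals mark the match, which is a match of letters and not a measured binding site.
Ifit3 (chr1:241527166-241527325, plus strand, response element core): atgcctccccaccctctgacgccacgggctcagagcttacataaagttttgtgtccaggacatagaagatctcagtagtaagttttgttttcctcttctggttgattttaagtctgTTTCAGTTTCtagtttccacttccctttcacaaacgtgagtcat
Irf7 (chr1:205800024-205800183, minus strand, response element core): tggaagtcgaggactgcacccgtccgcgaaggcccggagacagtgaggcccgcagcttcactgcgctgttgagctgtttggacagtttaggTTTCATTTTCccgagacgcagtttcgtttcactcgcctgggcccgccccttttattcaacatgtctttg
Rsad2 (chr6:48788121-48788280, minus strand, response element core): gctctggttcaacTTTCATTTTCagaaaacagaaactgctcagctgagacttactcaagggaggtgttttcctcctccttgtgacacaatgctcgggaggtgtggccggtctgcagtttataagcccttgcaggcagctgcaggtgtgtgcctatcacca
Irf1 (chr10:38417775-38417934, plus strand, gamma-activated site): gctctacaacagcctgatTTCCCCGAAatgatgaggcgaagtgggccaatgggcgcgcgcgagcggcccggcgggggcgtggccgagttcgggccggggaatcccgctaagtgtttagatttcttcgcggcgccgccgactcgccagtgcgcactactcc
Irf9 (chr15:33065676-33065835, plus strand, gamma-activated site): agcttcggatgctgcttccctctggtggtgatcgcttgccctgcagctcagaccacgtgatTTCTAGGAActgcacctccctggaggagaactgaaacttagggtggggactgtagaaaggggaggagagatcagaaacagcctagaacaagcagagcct

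The 3 response element cores lay 44, 69 and 147 bases before the start in Ifit3, Irf7 and Rsad2, counted at their first base. In all 3 the core was read on the opposite strand to the gene, as TTTCAGTTTC in Ifit3 and as TTTCATTTTC in both Irf7 and Rsad2. The gamma-activated sites began 142 bases before the start in Irf1, as TTCCCCGAA, and 99 bases before it in Irf9, as TTCTAGGAA.

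Total counts ran from 48402185 to 59193961 per library. Mesenchymal genes were high throughout, with a summed FPKM (fragment counts scaled by gene length and library depth) of 6033 to 7116 in control and 6749 to 9452 in preeclampsia libraries over 10 of 10 markers. Markers of other cells were measured too. Over 19 of 20 macrophage markers the sum was 165, 143 and 34.3 FPKM in the control and 37.0, 514 and 267 FPKM in the preeclampsia group. All 19 were at their highest in preeclampsia library 2, among them the leukocyte gene Ptprc, which ranged from 0.09 to 1.49 FPKM across the libraries. Over 21 genes of the G2 and M phases the sum was 256, 324 and 143 FPKM in the control and 677, 136 and 145 in the preeclampsia libraries. Epithelial and mesothelial markers, 10 of 11, were highest in control library 2, at 67.6 FPKM, mainly from the keratin genes Krt8 (37.4 FPKM) and Krt18 (17.2 FPKM), and between 6.16 and 28.3 in the other 5. Lymphocyte markers, 8 of 13, summed to at most 30.03 FPKM, mostly Cd4. Of the 8, 6 were below 1 FPKM in every library, and only 1 was highest in preeclampsia library 2. Like the macrophage sum, the lymphocyte sum was highest in preeclampsia library 2 and lowest in control library 3 (1.17 FPKM). Endothelial markers summed to at most 5.13 FPKM. Neutrophil and erythroid markers summed to at most 0.52 FPKM. In bulk RNA, fewer cells of a type and less RNA per cell cannot be told apart.

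None of the 9 genes was called in preeclampsia against control. With edgeR (quasi-likelihood test, Benjamini-Hochberg adjustment) the lowest adjusted p was 0.723, for Ifit2, and the highest 0.998, for Mx2. All 9 passed the filter on low counts. Of the 15776 genes tested, 0 (0%) had an adjusted p under 0.05, while 9.19% had an unadjusted p under 0.05, among them 0 of the 9. DESeq2 called 1.71% of the genes to which it gave an adjusted p, and again 0 of the 9. In each of the 9 genes the preeclampsia libraries overlapped the control libraries, where 15.6% of all tested genes had groups that did not overlap (judged here and below on log2 CPM, counts scaled by depth). Fold changes are given as log2 of preeclampsia over control. Of the 9, 4 were above 0 and 5 below, with a median of -0.01, and over all tested genes the median was 0.01 with 51.7% above 0. These intervals leave room for sizeable differences: the 95% interval of Mx2 reached from -3.47 to 3.45 and that of Rsad2 from -4.54 to 2.63, while that of Irf1 was -0.32 to 0.57.

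**Figure D1:**
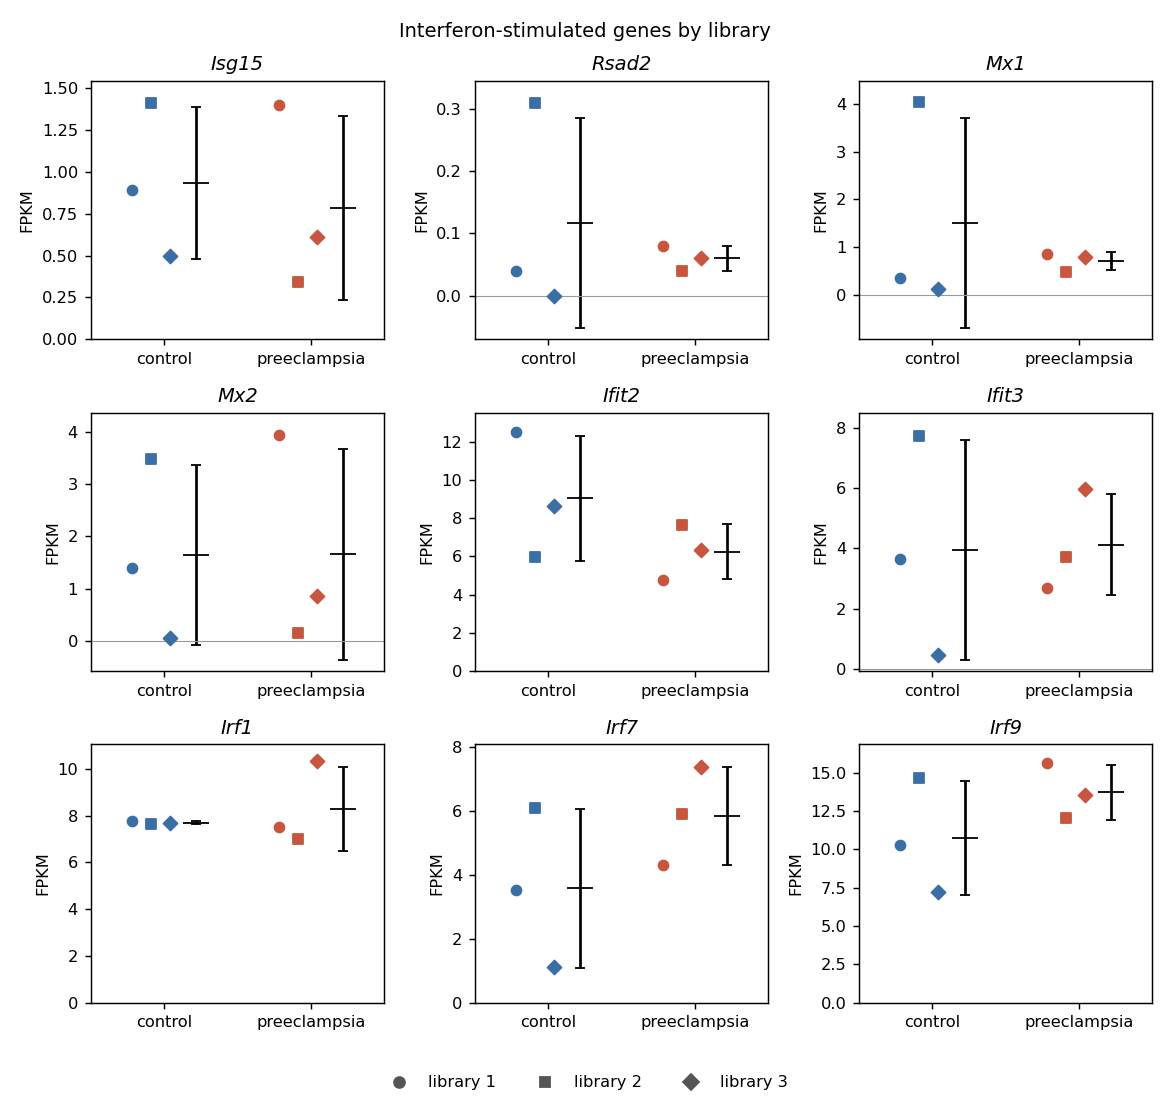
FPKM (vertical axes, each from its own scale) of the 9 genes in the 3 control (blue) and 3 preeclampsia (red) libraries, with the mean and SD of each group in black. The groups overlap in every panel, and control library 2 (blue square) is far above the other 5 libraries for Mx1 and Rsad2.

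Among the antiviral effectors, Isg15 encodes a ubiquitin-like protein that is attached to other proteins after interferon signalling. Its FPKM was 0.89, 1.41 and 0.50 in control against 1.40, 0.34 and 0.61 in preeclampsia, from 98 to 355 counts. Control library 2 and preeclampsia library 1 were thus level at the top, and preeclampsia library 2 was the lowest. The group means were 0.933 ± 0.457 and 0.783 ± 0.551 FPKM (SD, n = 3 each), which gave -0.26 on the log2 scale (SE 0.60, adjusted p = 0.926 by edgeR). On chromosome 5 the deposited table places Isg15 at 166784148 to 166785435; coordinates of this table, whose build the sources used here do not name, differ from the GRCr8 ones above.

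Rsad2 encodes viperin, a radical enzyme that makes a chain-terminating nucleotide against viral polymerases. It was close to the limit of detection, with 23, 179 and 0 counts in the control and 47, 26 and 32 counts in the preeclampsia libraries. A count of 0 allows up to 3 counts, and these limits cover counting error only. In FPKM the values were 0.04, 0.31 and 0.00 in control and 0.08, 0.04 and 0.06 in preeclampsia libraries, so that the control group held both the highest and the lowest library. The log2 fold change was -0.95 (SE 1.48, adjusted p = 0.894 by edgeR). Rsad2 lies on chromosome 6, from 43046514 to 43059737.

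The neighbouring genes Mx1 and Mx2 encode dynamin-like GTPases that block viruses, Mx1 mainly in the nucleus and Mx2 in the cytoplasm in rodents. For Mx1 the control libraries had 0.35, 4.03 and 0.11 FPKM, the preeclampsia libraries 0.85, 0.48 and 0.78 FPKM. Control library 2 alone carried 567 counts, and the other 5 libraries held 15 to 120. The means were 1.497 ± 2.197 and 0.703 ± 0.197 FPKM, with preeclampsia over control at -1.05 on the log2 scale (SE 1.20, adjusted p = 0.850 by edgeR). Mx2 was at 1.39, 3.47 and 0.06 FPKM in control and at 3.94, 0.16 and 0.86 FPKM in preeclampsia libraries. High and low libraries were found in both groups, from 13 counts in control library 3 to 848 in preeclampsia library 1. Its means were nearly equal, 1.64 ± 1.72 and 1.65 ± 2.01 FPKM (log2 fold change -0.01, SE 1.43). Both lie on chromosome 11, Mx1 from 36799659 to 36825209 and Mx2 from 36905698 to 36936308, and they are paralogs, so reads could have been shared between them. Mx2 overlaps the opposite-strand gene Tmprss2, which had 7 counts in control library 2 and 0 in the other 5.

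Ifit2 and Ifit3 encode tetratricopeptide proteins that bind viral RNA or partner proteins that do. Ifit3 was at 3.66, 7.73 and 0.46 FPKM in control and at 2.68, 3.73 and 5.97 FPKM in preeclampsia libraries, lowest in control library 3, with 19 counts, and highest in control library 2, with 309. Its means were 3.95 ± 3.64 and 4.13 ± 1.68 FPKM, with a log2 fold change of 0.08 (SE 0.89, adjusted p = 0.984 by edgeR). Ifit2 went another way, at 12.5, 5.98 and 8.66 FPKM in control and 4.77, 7.66 and 6.33 FPKM in preeclampsia libraries. Here control library 1 was the highest and preeclampsia library 1 the lowest. The means were 9.05 ± 3.28 and 6.25 ± 1.45 FPKM, or -0.52 on the log2 scale (SE 0.34, adjusted p = 0.723 by edgeR). Both genes lie on the plus strand of chromosome 1, Ifit2 from 232102570 to 232108638 and Ifit3 from 232114166 to 232119311. In the table's coordinates they fall inside the span of Lipa, a lysosomal lipase gene on the minus strand. Lipa was at 96.21, 74.61 and 59.65 FPKM in control and 49.95, 56.58 and 60.18 FPKM in preeclampsia libraries, also highest in control library 1 and lowest in preeclampsia library 1. The sources used here do not say whether counting used strand, so Lipa reads inside Ifit2 or Ifit3 could not be told apart, and their part in the Ifit2 pattern was not tested.

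The 3 transcription factors were measured at 346 to 2158 counts per library. Irf1, which is induced mainly by type II interferon, was the steadiest of the 9, at 7.77, 7.63 and 7.67 FPKM in control and 7.53, 6.98 and 10.3 FPKM in preeclampsia libraries. The coefficient of variation was 0.938% in control, and preeclampsia library 3 alone stood above the rest. The means were 7.69 ± 0.0721 and 8.28 ± 1.79 FPKM (log2 fold change 0.13, SE 0.18, adjusted p = 0.885 by edgeR). Irf7, which turns on type I interferon genes, was at 3.52, 6.10 and 1.11 FPKM in control and 4.30, 5.89 and 7.36 FPKM in preeclampsia libraries. Control library 3 was the lowest by far, and control library 2 lay among the preeclampsia libraries. Its log2 fold change of 0.73 (SE 0.58, adjusted p = 0.779 by edgeR) was the largest positive one of the 9, from means of 3.577 ± 2.495 and 5.85 ± 1.53 FPKM. Irf9, a DNA-binding partner of Stat2, was at 10.3, 14.6 and 7.23 FPKM in control and 15.6, 12.0 and 13.5 FPKM in preeclampsia libraries. Control libraries 1 and 3 lay below all preeclampsia libraries and control library 2 within them. The means were 10.7 ± 3.72 and 13.7 ± 1.79 FPKM, or 0.37 on the log2 scale (SE 0.27, adjusted p = 0.753 by edgeR). Irf1 lies on chromosome 10 from 37917155 to 37924166, Irf7 on chromosome 1 from 196367380 to 196370943 and Irf9 on chromosome 15 from 29095474 to 29101924.

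The spread between libraries was wide for most of the 9. Control library 3 was the lowest of the 6 libraries for 6 of the 9 genes (Ifit3, Mx1, Mx2, Irf7, Irf9 and Rsad2), and it was the lowest for 18.1% of all tested genes. Control library 2 was the highest for 4 (Isg15, Ifit3, Mx1 and Rsad2), against 13.2% of all tested genes. From the lowest to the highest library FPKM differed 65.7-fold for Mx2, 36.6-fold for Mx1, 16.8-fold for Ifit3 and 6.63-fold for Irf7. The ratio was 4.15-fold for Isg15, 2.62-fold for Ifit2, 2.16-fold for Irf9 and 1.48-fold for Irf1. The within-group SD of log2 CPM of Mx2, Rsad2, Mx1 and Ifit3 ranked at the percentiles 99.5, 98.9, 96.7 and 93.6 of all tested genes, while Irf1 ranked at 34.5. The first 4 were also low in level, at the percentiles 28.6, 12.3, 23.3 and 26.2 of mean log2 CPM. In 6 of the 9 the coefficient of variation of FPKM was larger in the control group, 147% against 27.9% for Mx1 and 69.8% against 26.2% for Irf7, where 46.3% of tested genes had the larger value in control. The exceptions were Isg15, Mx2 and Irf1.

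**Figure D2:**
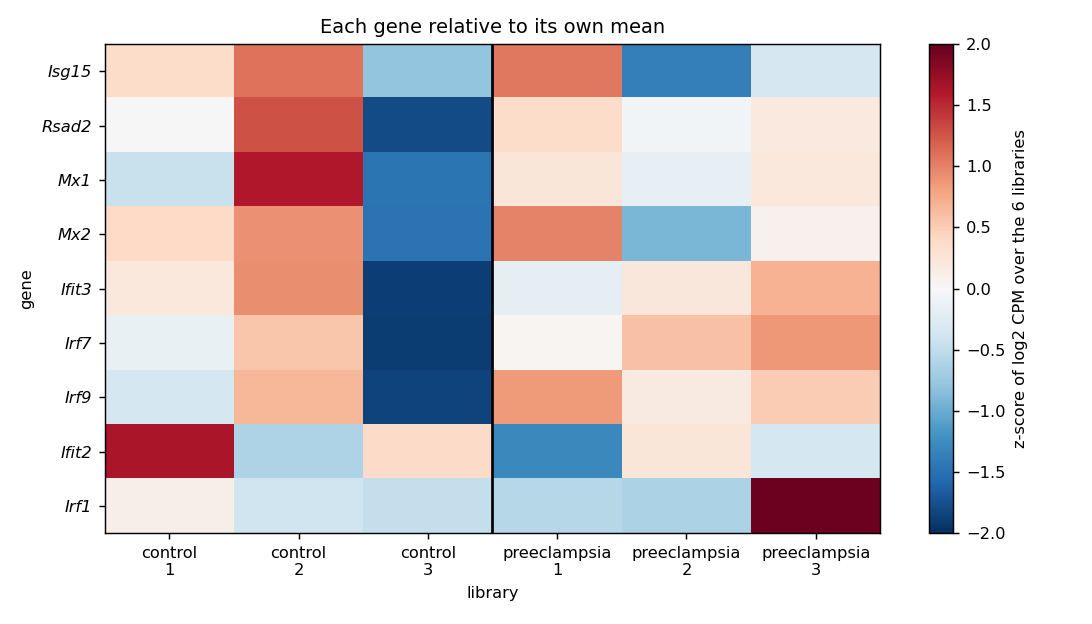
Colour gives the z-score of log2 CPM of each gene (rows) over the 6 libraries (columns), with the black line between the groups. Control library 3 is low for 7 of the 9 genes, from -0.79 for Isg15 to -1.89 for Irf7, while Ifit2 and Irf1 follow patterns of their own.

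Single libraries turned the direction of 6 of the 9. Without control library 2 the log2 fold change went from -1.05 to 1.62 for Mx1, from -0.95 to 1.48 for Rsad2, from -0.01 to 1.14 for Mx2 and from -0.26 to 0.15 for Isg15, none of them called (adjusted p by edgeR 0.747, 0.899, 0.925 and 0.978). Control library 3 bore on the 2 factors with the largest positive values: without it Irf7 went from 0.73 to 0.30 and Irf9 from 0.37 to 0.15. Without control library 2 both rose, Irf7 to 1.33 and Irf9 to 0.65, neither called (adjusted p by edgeR 0.747 and 0.726). Without preeclampsia library 1, Mx2 stood at -1.65 and Isg15 at -0.93. Isg15 also turned without preeclampsia library 2 (0.09), Mx2 without preeclampsia library 2 (0.53) or 3 (0.29), Ifit3 without control library 3 (-0.44) or preeclampsia library 3 (-0.28) and Irf1 without preeclampsia library 3 (-0.07). Irf7 (0.30 to 1.33), Irf9 (0.15 to 0.65) and Ifit2 (-0.75 to -0.16) kept their direction with each library left out.

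**Figure D3:**
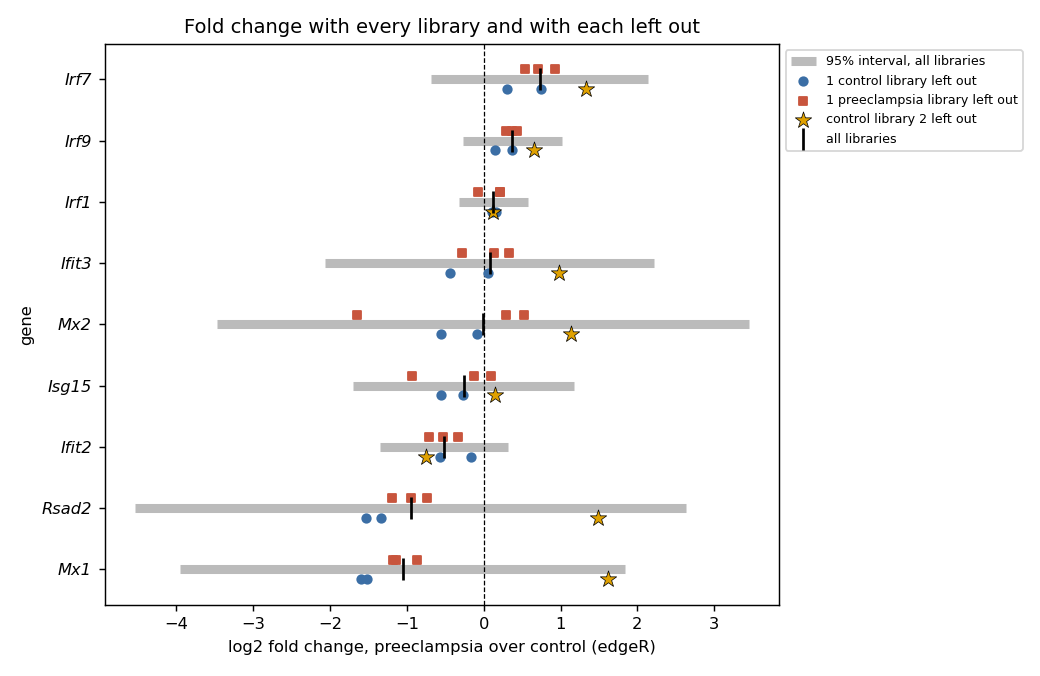
Log2 fold change of preeclampsia over control (horizontal axis) for the 9 genes, with all libraries (black tick, 95% interval in grey) and with each library left out in turn. Without control library 2 (star) Mx1, Rsad2, Mx2 and Isg15 cross from below 0 to above it.

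Marker sums are set beside these genes. Control library 3 and preeclampsia library 1 had the lowest macrophage sums, 34.3 and 37.0 FPKM. Mx2 was at 0.06 in the first and 3.94 FPKM in the second, Irf9 at 7.23 and 15.6 FPKM, and Irf7 at 1.11 and 4.30 FPKM. In preeclampsia libraries 2 and 3, with the highest macrophage sums, Irf7 was at 5.89 and 7.36 FPKM and Isg15 at 0.34 and 0.61 FPKM. With the macrophage level as a covariate Irf7 stood at 0.52 on the log2 scale (0.73 without it). With both low libraries left out, no gene of the 9 was called, Isg15 stood at -1.24 (adjusted p = 0.246 by edgeR) and Mx2 at -2.22 (adjusted p = 0.304). The groups that remained also differed in the sum of G2 and M phase genes. It was 256 and 324 FPKM in the control and 136 and 145 FPKM in the preeclampsia libraries. Isg15 and Mx2 were higher in control libraries 1 and 2 and preeclampsia library 1, the 3 libraries with the highest sum of G2 and M phase genes, than in the other 3. Control library 2, highest for Mx1, Rsad2 and Ifit3, also had the most keratin RNA. The part of growth and of epithelial cells in these values was not tested, and with 6 libraries the covariate and the left-out libraries do not settle that of macrophages.

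Genes with the most similar pattern to the mean z-score of the 9 across the 6 libraries were Tmem64, Mroh2a, Plscr2, Nln and Vwde, with Pearson's r from 0.981 to 0.994 among 13442 genes compared. Tmem64, a transmembrane protein gene, was at 1.25, 1.74 and 0.23 FPKM in control and 1.15, 0.70 and 1.36 FPKM in preeclampsia libraries. Plscr2, a phospholipid scramblase gene, was at 0.54, 0.86 and 0.09 FPKM in control and 0.52, 0.29 and 0.48 FPKM in preeclampsia libraries. For Irf7 alone they were Bicdl2, Dhx34, Zfp263, Irx5 and Slfn1 (r from 0.986 to 0.994). Slfn1, of the schlafen family, was at 1.16, 1.33 and 0.65 FPKM in control and 1.21, 1.42 and 1.64 FPKM in preeclampsia libraries. With 6 libraries and so many genes searched, these values describe the samples only.

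The rest of the pathway was read from 7 lists with 126 different genes beside the 9, of which 104 were tested. No gene of them was called by edgeR. DESeq2 called 2, Bst2 and Ifi27, where it called 1.71% of all genes, and 11 had an unadjusted p under 0.05 by edgeR, where 9.19% of all tested genes did. With directions pooled, both counts were close to these shares. Of the 11, 9 were higher and 2 lower in preeclampsia, where 651 and 799 of all 15776 tested genes were. Of the 104, 67.3% had a fold change above 0, with a median log2 of 0.21, against 51.7% and 0.01 over all tested genes. In 18 the groups did not overlap, 15 of them higher in preeclampsia, where 7.25% of all tested genes were higher in this way. Among the marker lists, 19 of 19 macrophage markers and 21 of 21 G2 and M phase genes were above 0, with medians of 0.97 and 0.44. None of these genes had groups apart. The G2 and M phase sum was 677 FPKM in preeclampsia library 1 but 136 and 145 FPKM in preeclampsia libraries 2 and 3. In control it was 143 to 324 FPKM. The macrophage sums overlapped too, at 34.3 to 165 FPKM in control and 37.0 to 514 FPKM in preeclampsia. Of 5 epithelial and mesothelial markers tested, 1 was above 0 and 4 below, with a median of -1.31. DESeq2 called 3 of them, Msln higher and Krt8 and Krt18 lower in preeclampsia. By edgeR 0 of the 5 were called, the lowest adjusted p being 0.228, for Msln. The groups of Krt8 overlapped, and the sum of this list was highest in control library 2. With the macrophage level as a covariate Bst2 stood at 2.41 (2.48 without it) and Ifi27 at 0.59 (0.63 without it). Tlr7 went from 1.19 to 0.18 and Tlr8 from 0.705 to -0.58. With 6 libraries these values do not settle the part of macrophages. The part of epithelial cells and of growth in the pathway values was not tested.

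Of 13 interferon genes listed, only Ifna1 was in the table, at 0.00 FPKM in 4 libraries and at 0.05 and 0.12 FPKM in preeclampsia libraries 2 and 3, and it was not tested; the others, Ifnb1 among them, were not analysed here. Receptors and kinases were well measured. Of 11 such genes 8 were above 0 (median 0.21). Ifnar2 was at 55.1 ± 9.81 FPKM in control and 62.4 ± 6.97 in preeclampsia, Ifnar1 at 28.3 ± 2.93 and 32.1 ± 6.69, and the type II receptor gene Ifngr1 at 34.1 ± 6.47 and 31.0 ± 4.22. Jak1 was at 87.75, 104.55 and 75.05 FPKM in control and 106.60, 115.55 and 104.37 FPKM in preeclampsia libraries, and its groups were apart in log2 CPM but overlapped slightly in FPKM. The type III receptor gene Ifnlr1 was at 5.21, 5.18 and 8.02 FPKM in control and 8.25, 8.19 and 8.52 FPKM in preeclampsia libraries, all above control by a narrow gap. The log2 fold change of Jak1 was 0.31 (SE 0.16, adjusted p = 0.640 by edgeR) and that of Ifnlr1 0.46 (SE 0.20, adjusted p = 0.556). Stat2 was at 9.59 ± 1.19 and 12.1 ± 1.60 FPKM (0.36, SE 0.16), and its groups overlapped.

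Sensors of foreign nucleic acid and their adaptors were split, 8 of 15 tested genes being above 0 (median 0.10). Tbk1, the kinase that activates Irf3, was at 27.4 ± 2.78 and 29.4 ± 2.46 FPKM. Traf3, an adaptor upstream of it, was at 26.8 ± 4.16 and 21.0 ± 1.29 FPKM, without overlap (log2 fold change -0.33, SE 0.13). Ifih1, the long RNA sensor MDA5, was at 8.53 ± 2.12 and 5.91 ± 0.990 FPKM, and the double-stranded RNA receptor gene Tlr3 at 14.8 ± 7.29 and 10.2 ± 1.51 FPKM. Myd88, the adaptor of most Toll-like receptors, was at 3.42 ± 0.0115 and 4.49 ± 0.629 FPKM (0.42, SE 0.16). Of the 6 other interferon regulatory factors 3 were above 0. Irf2 was at 4.99 ± 1.27 and 5.70 ± 0.318 FPKM and Irf3 at 5.41 ± 0.685 and 5.08 ± 0.0757 FPKM. Irf5 was at 3.67 ± 0.479 and 4.14 ± 1.54 FPKM. Irf8, a factor of myeloid cells, was at 2.71, 4.60 and 0.44 FPKM in control and 1.19, 2.29 and 2.80 FPKM in preeclampsia libraries, again lowest in control library 3.

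All 5 genes that attach or remove Isg15 were above 0 (median 0.37), none of them with groups apart. Ube2l6, its conjugating enzyme, was at 10.1 ± 3.00 and 12.9 ± 1.39 FPKM, and Trim25, a ligase, at 11.8 ± 1.41 and 12.3 ± 1.79 FPKM. Uba7, the activating enzyme, was low, at 0.170 and 0.313 FPKM on average. Usp18, which removes Isg15 and also silences the receptor, was at 1.43, 3.37 and 0.62 FPKM in control and 2.79, 1.56 and 2.59 FPKM in preeclampsia libraries, highest in control library 2 and lowest in control library 3. Of 12 negative regulators 8 were above 0. Socs3, a feedback inhibitor of Jak kinases that interleukin-6 family cytokines also induce, was at 6.73, 7.26 and 22.1 FPKM in control and 30.3, 27.8 and 24.7 FPKM in preeclampsia libraries. Control library 3 lay just below the preeclampsia libraries and the other 2 control libraries far below. The log2 fold change was 1.23 (SE 0.46, adjusted p = 0.499 by edgeR), from 0.97 without control library 1 or 2 to 1.98 without control library 3. The phosphatase genes Ptpn11 and Ptpn1 were at 46.7 ± 3.91 and 24.4 ± 5.55 FPKM in control and at 43.1 ± 3.66 and 29.6 ± 4.08 FPKM in preeclampsia. Nlrx1 was at 41.9 ± 11.2 and 31.1 ± 5.63 FPKM.

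Among 59 other interferon-induced effectors tested, 41 were above 0 (median 0.25). In 9 of them the preeclampsia libraries were all higher than the control libraries, against 7.25% of all tested genes, and in 0 all lower, against 8.3%. Bst2, which encodes tetherin, a protein that holds budding virus on the cell surface, was at 4.94, 3.60 and 0.78 FPKM in control and 16.9, 11.6 and 23.7 FPKM in preeclampsia libraries. The lowest preeclampsia library was thus well above the highest control library. The log2 fold change was 2.48 (SE 0.68, adjusted p = 0.458 by edgeR and 0.00992 by DESeq2), from 2.02 to 3.03 with each library left out. Ifi27, a small membrane protein gene induced by type I interferon, had the tightest groups, at 242, 233 and 234 FPKM in control and 359, 366 and 353 FPKM in preeclampsia libraries. Its log2 fold change was 0.63 (SE 0.10, adjusted p = 0.313 by edgeR and 0.000579 by DESeq2). Neither was called by edgeR or limma in any alternative, the lowest adjusted p being 0.135 for both.

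**Figure D4:**
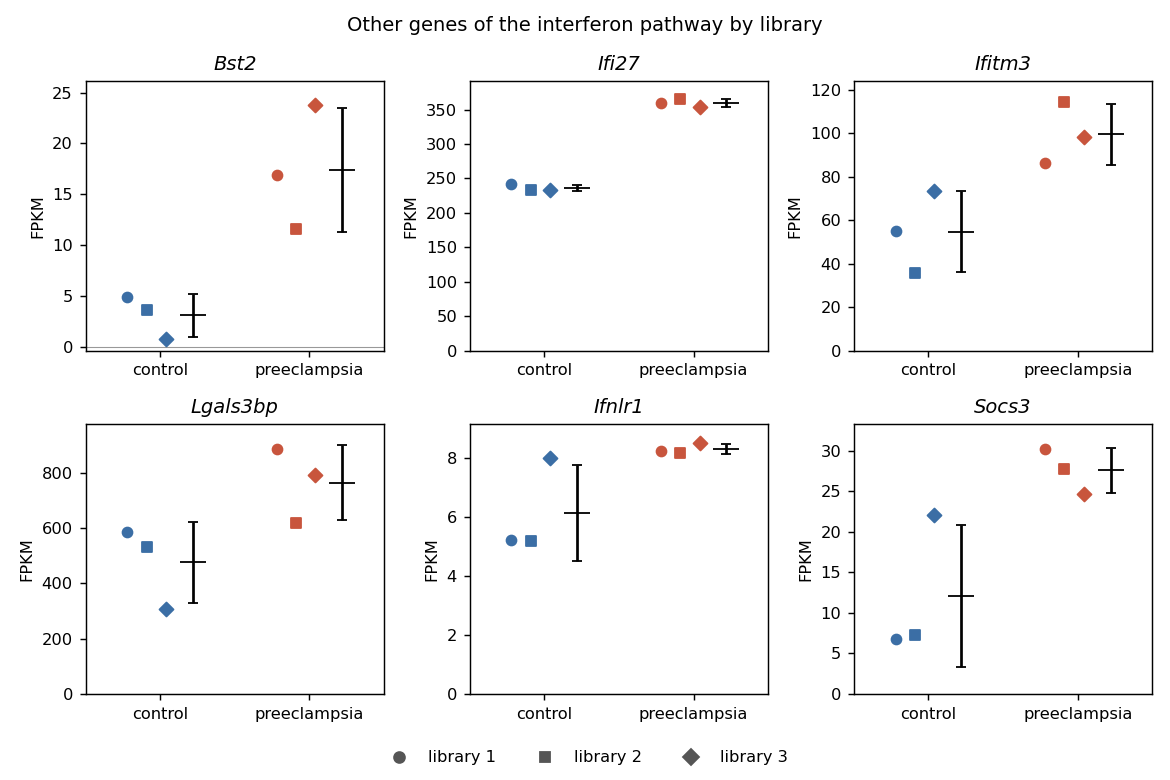
FPKM (vertical axes) of 6 other genes of the interferon pathway in the 3 control (blue) and 3 preeclampsia (red) libraries, with the mean and SD of each group in black. All 6 are among the 18 pathway genes whose groups did not overlap, of which 15 were higher and 3 lower in preeclampsia. All 6 shown are higher. The groups are therefore apart in each panel through the choice of genes, widely for Bst2 and Ifi27 and narrowly for Ifnlr1, Socs3 and Lgals3bp.

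Other effectors with high FPKM went the same way with more spread. Ifitm3, which keeps viruses from fusing with endosomes, was at 54.9, 35.9 and 73.3 FPKM in control and 86.1, 114 and 98.1 FPKM in preeclampsia libraries (log2 fold change 0.89, SE 0.28, adjusted p = 0.470 by edgeR). Its paralog Ifitm2 was at 172 ± 57.2 and 252 ± 76.8 FPKM and overlapped, and reads may be shared among the Ifitm genes. Lgals3bp, which encodes a galectin-binding secreted protein, had 587, 532 and 309 FPKM in control and 885, 619 and 792 FPKM in preeclampsia libraries (0.69, SE 0.28, adjusted p = 0.534 by edgeR), and at 0.45 without control library 3. Samhd1, Helz2, Slfn2, Tor3a and Cd274 were the rest of the 9 effectors with all preeclampsia libraries higher. Their log2 fold changes were 0.44, 0.48, 0.32, 0.64 and 0.71, none of them called by edgeR or DESeq2. Ifit1, Oas1a and Cxcl10 were low in FPKM and overlapped between the groups. Ifit1, a paralog of Ifit2 and Ifit3, was at 0.760 ± 0.652 FPKM in control and 0.407 ± 0.350 FPKM in preeclampsia. Oas1a, which makes the activator of RNase L, was at 0.690 ± 0.711 and 1.41 ± 0.585 FPKM, and the chemokine gene Cxcl10 at 0.853 ± 0.403 and 1.04 ± 1.32 FPKM. Whether Bst2 and Ifi27 differ from the 9 genes in their response was not tested.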

How the data were processed

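RNA from 3 control and 3 preeclampsia libraries was enriched on oligo(dT), random-primed and given adapters with unique molecular identifiers, per the labels' protocols. Tools named in the submitters' processing notes are HISAT2 2.2.1, StringTie 2.1.6, cutadapt 1.9 and FastQC, with no order or role. The genome build and the use of strand or identifiers were not given in the sources used here.

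For every gene the authors deposited whole-number counts and FPKM for each library. Chromosome numbers were looked up by symbol in RefSeq. Deposited FPKM values equalled the count times 1 factor for the gene and 1 for the library. This held within 0.0149 on the log2 scale over 2894 genes above 20 FPKM in every library. Of counts from 1 to 15, multiples of 4 made up 35.1% to 38.0% in each library, where an even spread gives 20%; low counts are therefore uncertain. For 802 of 11020 genes with over 100 counts in every library, the length implied by count and FPKM exceeded the gene's span. FPKM is therefore compared here mainly between libraries. Marker sums, the genes named as most of a sum, picks by mean FPKM and levels called high or low do weigh genes against each other. These are rough.

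The test was edgeR 4.0.16 (R 4.3.3), quasi-likelihood, after filterByExpr and TMM scaling, with group as the only term, two-sided, with Benjamini-Hochberg adjustment over 15776 genes and a threshold of 0.05. SE is the fold change over the root of F. No 2 libraries were duplicates (smallest chi-square per degree of freedom 140). The fit was also run on counts simulated from its own estimated dispersions, each gene drawn independently. This checked the running of the fit only, and no result here rests on it. Alternatives were DESeq2 1.42.0, other scalings, no filter, limma 3.58.1 on log2(FPKM + 1 or 0.1) with a mean FPKM of at least 1 or unfiltered, a replicate block, leaving out each library, and a macrophage covariate or the 2 macrophage-poor libraries left out.

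The 9 members and all lists were chosen with earlier results of these data known. Named from each list were called genes or else up to 4 with the highest mean FPKM, plus Stat2, Ifnar1, Ifnb1, Usp18, Ifit1, Ifi27, Oas1a, Cxcl10 and Bst2, and the 5 genes most like the members' mean or Irf7 in pattern. Ifnlr1, Myd88, Lipa, Tmprss2, Krt8, Krt18, Msln, Ptprc and Cd4 were named after their values were seen. So were Samhd1, Helz2, Slfn2, Tor3a, Cd274, Tlr7 and Tlr8. Some listed genes are not reported here. Some genes stand in 2 lists, such as Ifih1, Usp18, Herc6 and Trim25.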

Additional observations from a re-analysis of the deposited data

How the results depend on the processing

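Of 149 values of the 9 genes under 17 alternatives, 129 kept the direction given and 20 reversed it, and 0 were called, the lowest adjusted p being 0.246. Irf7, Irf9 and Ifit2 reversed in none. Mx2, at -0.01, stood at 0.007 with DESeq2, 0.008 with relative log expression factors, 0.015 with library totals and 0.082 with limma on log2(FPKM + 0.1), where Mx1 stood at 0.10. With the replicate number as a block (replicate block) Mx1, Mx2 and Rsad2 stood at 0.56, 0.79 and 0.78. The labels tie equal numbers to no shared litter or day, and deviations of same-numbered libraries correlated at 0.048, 0.041 and 0.010, so the numbers were not taken to pair libraries. Ifit3 stood at -0.20 with both macrophage-poor libraries left out and at -0.10 with the macrophage covariate. With each library left out in turn, Isg15 ranged from -0.93 to 0.15, Ifit3 from -0.44 to 0.98, Mx1 from -1.60 to 1.62, Mx2 from -1.65 to 1.14, Irf1 from -0.069 to 0.22 and Rsad2 from -1.53 to 1.48. The cause of these reversals was not tested beyond the library named. The count of genes called was 302 with DESeq2, of which 2 were pathway genes, 1 with limma without a filter, 3 without both macrophage-poor libraries, and 0 to 2 with each library left out. Spread between libraries limits these values, together with the low counts of Rsad2, Mx1, Mx2 and Ifit3 in some libraries.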

Other observations

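For Isg15 the length implied by count and FPKM was 4.87 kb where the gene spans 1.29 kb in the table, and for Irf7 it was 6.06 kb against 3.56 kb. Rsad2 had an implied length of 11.2 kb within a span of 13.2 kb. The other 6 genes had implied lengths from 0.772 kb (Ifit3) to 4.14 kb (Mx2), each below the gene's span. Deposited FPKM of Isg15 and Irf7 therefore cannot be read as a level per length of a spliced transcript, and the same held for 7.28% of well counted genes. Comparisons of 1 gene between libraries are untouched where the gene's factor is the same in every library. That was checked only for genes above 20 FPKM, which Isg15 and Irf7 are not.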
